A study of Mus musculus with 12 samples.

Results

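Genes that restrain Wnt signalling, 10 in number, were followed in the epithelium of the circumvallate papilla of the mouse, a taste bud-bearing structure of the posterior tongue. They are the secreted inhibitors Notum, Wif1, Dkk1, Dkk3, Sfrp1 and Sfrp2, the membrane protein Apcdd1, and the intracellular inhibitors Nkd1, Nkd2 and Axin2. The members were taken by name, and all 10 were among the 52670 gene symbols measured. The mice were adults of 11 to 12 weeks with the genotype Sox2GFP, a reporter in which green fluorescent protein marks cells that express the transcription factor Sox2. Cells freed from the epithelium were sorted on GFP signal. The bins Low, MedLow, HiMed and High run from dim to bright, and cells without GFP were discarded, so all 4 bins hold GFP-positive cells of the same genotype. Each bin has 3 libraries of polyadenylated RNA, 12 in all, and each replicate pooled 7 to 13 mice. Levels are given as CPM, counts relative to the scaled size of the library, and where genes are compared with each other as TPM, a measure of transcripts that allows for their length.

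Wnt proteins are lipid-modified ligands that bind Frizzled receptors with the co-receptors Lrp5 and Lrp6 and stop the breakdown of beta-catenin, which then switches on target genes with Tcf and Lef factors. Several of those targets, Axin2 and Notum among them, encode inhibitors of the same pathway, so their transcripts serve both as brakes and as commonly used readouts of Wnt activity. In the tongue, Wnt signalling is required for the renewal of taste cells and the upkeep of their progenitors. Notum removes the lipid from Wnt, Wif1 and the Sfrp proteins bind Wnt outside the cell, Dkk1 blocks Lrp5 and Lrp6, and Apcdd1 acts at the cell surface. Nkd1 and Nkd2 bind Dishevelled, and Axin2 is a scaffold of the complex that degrades beta-catenin. Dkk3 is the divergent member of its family, and its part in Wnt signalling is less settled.

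RefSeq start-site windows (build GRCm38.p6, 250 bases before to 50 after the start) were matched for 6 of the 10 members: Wif1, Dkk1, Sfrp2, Nkd1, Nkd2 and Axin2. No window was matched for Notum, Dkk3, Sfrp1 and Apcdd1. The 5 windows below are shown because Wif1 and Nkd1 were both far higher in the brightest cells, and Nkd1 and Nkd2 are paralogs that differed in High over Low. Axin2 is the common readout of the pathway, and Dkk1 had no counts. Capitals mark 3 kinds of motif, searched on both strands. The Tcf word was CTTTGAA, with the variant forms CTTTGAT and, differing further, CTTTGTA and, in the last form, CTTTGTT. The GC box was GGGCGG, which on the opposite strand reads CCGCCC. The TATA word was TATAAA, which on the opposite strand reads TTTATA. The Wif1 window is chr10:121033754-121034053 on the plus strand, that of Nkd1 chr8:88527383-88527682 on the plus strand, that of Nkd2 chr13:73847582-73847881 on the minus strand, that of Axin2 chr11:108920099-108920398 on the plus strand, and that of Dkk1 chr19:30549447-30549746 on the minus strand.
Wif1: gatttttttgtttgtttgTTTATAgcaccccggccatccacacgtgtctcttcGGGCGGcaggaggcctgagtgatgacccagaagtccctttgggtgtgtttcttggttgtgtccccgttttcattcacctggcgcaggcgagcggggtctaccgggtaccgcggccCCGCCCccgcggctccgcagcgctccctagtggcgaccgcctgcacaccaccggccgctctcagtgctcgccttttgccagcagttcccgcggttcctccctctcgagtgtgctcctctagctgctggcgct
Nkd1: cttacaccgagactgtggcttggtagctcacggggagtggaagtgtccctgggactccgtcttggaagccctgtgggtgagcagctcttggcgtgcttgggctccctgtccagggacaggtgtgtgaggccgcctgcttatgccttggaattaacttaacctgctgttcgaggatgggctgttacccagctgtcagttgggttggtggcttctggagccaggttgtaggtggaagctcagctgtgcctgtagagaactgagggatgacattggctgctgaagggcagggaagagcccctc
Nkd2: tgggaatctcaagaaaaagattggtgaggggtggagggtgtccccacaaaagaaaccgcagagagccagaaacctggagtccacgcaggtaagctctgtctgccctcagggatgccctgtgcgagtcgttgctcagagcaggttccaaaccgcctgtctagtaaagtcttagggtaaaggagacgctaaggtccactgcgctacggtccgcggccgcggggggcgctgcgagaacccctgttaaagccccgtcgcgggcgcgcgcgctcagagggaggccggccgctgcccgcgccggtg
Axin2: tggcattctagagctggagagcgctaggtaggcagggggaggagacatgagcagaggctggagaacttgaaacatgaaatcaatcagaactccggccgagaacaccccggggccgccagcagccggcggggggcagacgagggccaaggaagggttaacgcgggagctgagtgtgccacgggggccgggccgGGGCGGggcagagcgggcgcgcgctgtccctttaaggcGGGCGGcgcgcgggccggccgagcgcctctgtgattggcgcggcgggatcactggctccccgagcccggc
Dkk1: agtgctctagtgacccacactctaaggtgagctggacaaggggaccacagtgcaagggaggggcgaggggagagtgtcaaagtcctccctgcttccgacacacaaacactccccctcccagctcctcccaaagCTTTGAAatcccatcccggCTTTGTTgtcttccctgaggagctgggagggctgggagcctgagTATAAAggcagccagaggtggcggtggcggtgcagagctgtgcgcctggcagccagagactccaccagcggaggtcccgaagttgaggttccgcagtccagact
The Tcf words occurred in 16.9% of all 32851 windows, the GC box in 35.7% and TATAAA in 13.6%. Of the 6 members' windows only that of Dkk1 held Tcf words, CTTTGAA starting at position -117 and CTTTGTT at -98, and CTTTGTT is also a word that Sox factors can bind. Wif1 and Axin2 each had 2 GC boxes, and the windows of Nkd1, Nkd2 and Sfrp2 held none of the motifs. The paralogs differed in CpG content, with 6 CpG dinucleotides in the Nkd1 window and 26 in that of Nkd2. A word is a description of these letters, and its absence from a window says nothing about the factor.

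The libraries held 25670373 to 55583897 counts, the fewest in Low replicate 2. Sox2, whose reporter was sorted, averaged 70.3 ± 6.17 CPM in Low and 98.0 ± 1.198 CPM in MedLow (mean ± SD, n = 3 libraries per bin here and throughout). It averaged 171 ± 2.64 CPM in HiMed and 373 ± 12.8 CPM in High, in step with the bin labels. The 5 epithelial markers Krt5, Krt14, Epcam, Cdh1 and Trp63 summed to 5315 to 7238 CPM in High and 22664 to 23507 in Low, and none was at 0 in any bin. Krt5 and Krt14 carried that sum, and 2 of the 5 were called higher and 3 lower in High over Low. Epcam averaged 581 ± 101 CPM in High and 178 ± 8.75 CPM in Low. The 8 taste cell markers summed to 1728 to 3089 CPM in High and 448 to 646 in Low, with 5 called higher and 2 lower in High over Low. Krt8 and Krt19 carried the sum in High, whereas Trpm5 averaged 18.6 ± 4.53 CPM in High and 62.9 ± 24.9 CPM in Low. Endothelial, melanocyte and skeletal muscle markers each summed to no more than 2.22 CPM in any library, and the Schwann cell and neuron markers to 19.3 to 21.3 CPM in High and 33.3 to 61.3 in Low. The labels name no sorting day or batch, and p-values measure the spread between these pooled samples. Equal replicate numbers were read as the same pool of mice divided over the bins, and the main fit does not model that pairing.

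Of the 10 members, 8 had enough counts to be tested, among 17432 genes in all. Every adjusted p below comes from edgeR (quasi-likelihood F test, Benjamini-Hochberg adjustment over all these genes) unless another tool is named, and a gene was called where it was below 0.05. Each of the 8 was called for a difference among bins, with an adjusted p of 8.72e-10 for Notum to 2.19e-05 for Dkk3. Across all genes, 41.8% were called by that test. The inhibitors did not share a course. Notum and Nkd1 were highest in High, Wif1 in both HiMed and High, and Sfrp1, Apcdd1, Dkk3 and Nkd2 in Low. Axin2 was lowest in both middle bins and highest in High. In High over Low, 4 of the 8 rose (Notum, Wif1, Nkd1 and Axin2) and 4 fell (Dkk3, Sfrp1, Apcdd1 and Nkd2), against 20.1% of all genes called higher, 21.2% called lower and 41.4% called either way. The libraries of High and Low did not overlap for any of the 8, as for 52.4% of all genes. The set as a whole was not tested, and the sizes of the differences carry the description. In these bulk samples, fewer cells that express a gene and less RNA per cell cannot be told apart.

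**Figure D1:**
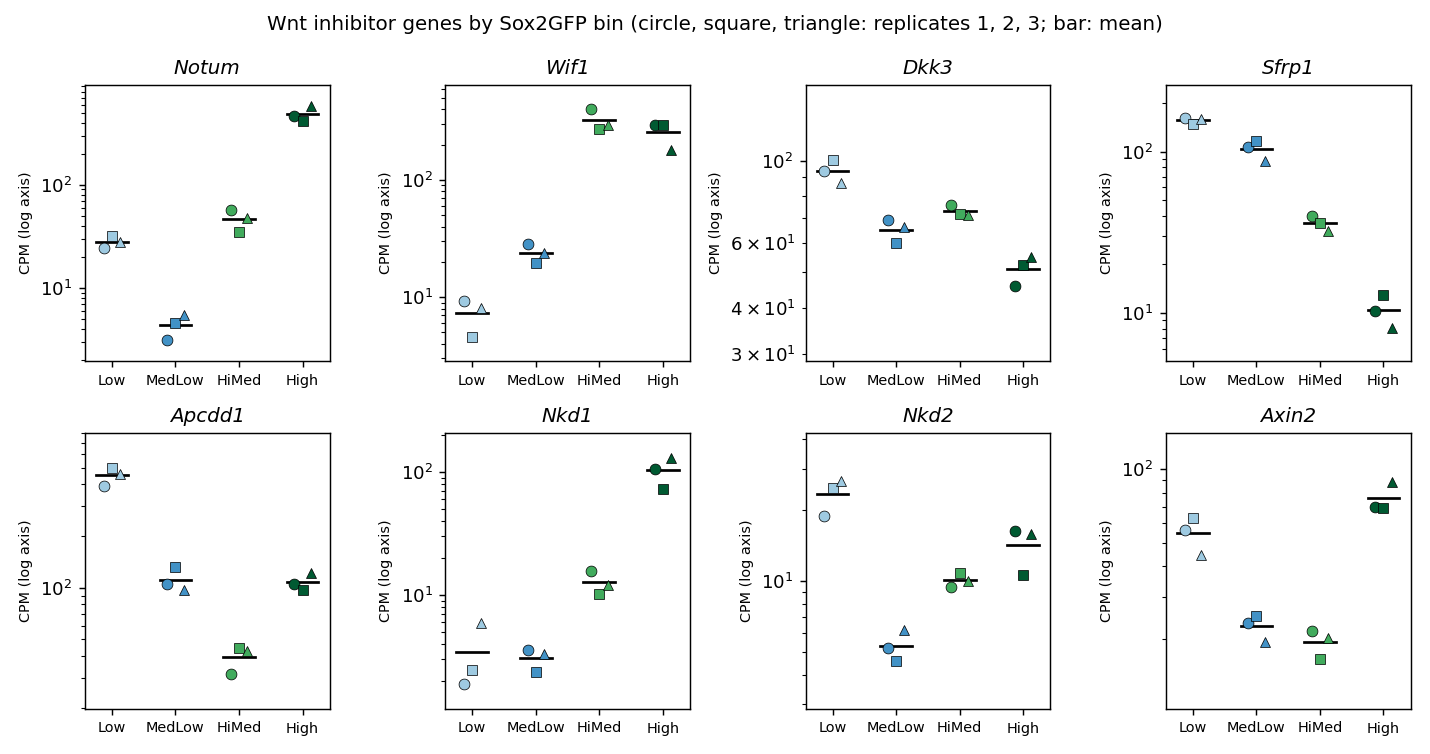
CPM (log axis) of the 8 tested Wnt inhibitor genes in the 12 libraries, by Sox2GFP bin from Low to High; points are libraries, with a shape per replicate, and bars are means. Notum averages 489 CPM in High and 4.36 CPM in MedLow, Wif1 is high in HiMed and High, Sfrp1 declines from bin to bin, and Axin2 is lowest in the middle bins.

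Notum, the extracellular enzyme that inactivates Wnt ligands, had the widest range of the 8 tested members, 112-fold between the means of its highest and lowest bins. Its libraries had 24.4, 31.9 and 27.9 CPM in Low, 3.11, 4.53 and 5.45 in MedLow, 57.1, 34.5 and 47.8 in HiMed, and 465, 420 and 581 in High. No 2 bins overlapped, and MedLow stood below all others. Notum rose by 6.81 on the log2 scale in High over MedLow (SE 0.25, adjusted p = 1.51e-09), by 3.39 in High over HiMed (SE 0.21, adjusted p = 5.24e-07) and by 3.41 in HiMed over MedLow (SE 0.22, adjusted p = 1.08e-06). It fell by 2.68 in MedLow over Low (SE 0.22, adjusted p = 9.26e-06). HiMed was above Low by 0.73 (SE 0.20, adjusted p = 0.0156), a call that was lost without Low replicate 1 (0.64, adjusted p = 0.0714) or HiMed replicate 1 (0.56, adjusted p = 0.069). High over Low was 4.12 (SE 0.22, adjusted p = 9.92e-09). Summed taste cell markers were highest in High too, though Trpm5, Plcb2 and Snap25 were lowest there. The 6 leukocyte markers summed to 103 to 308 CPM in High and 33.2 to 51.0 in Low, with 1 of 5 tested called higher and 2 lower, Cd3e at 0 in every bin and Csf1r at 0 in High. Nearly all of that sum was Lyz2, at 172 ± 113 CPM in High and 32.7 ± 8.49 CPM in Low. The part of such cells in the level of Notum was not tested.

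Wif1, a secreted protein that binds Wnt, was high in both of the brighter bins. Its libraries had 9.25, 4.56 and 8.07 CPM in Low, 28.5, 19.6 and 23.8 in MedLow, 403, 269 and 296 in HiMed, and 294, 291 and 181 in High. HiMed and High overlapped and both stood above the dimmer bins, which also lay apart from each other. Wif1 rose by 3.75 on the log2 scale in HiMed over MedLow (SE 0.26, adjusted p = 1.75e-06) and by 1.69 in MedLow over Low (SE 0.26, adjusted p = 0.00119), and the call of MedLow over Low was lost with limma-voom (1.66, adjusted p = 0.0642). High over Low was 5.11 (SE 0.29, adjusted p = 1.41e-08). High averaged 255 ± 64.6 CPM against 323 ± 71.0 in HiMed, a difference of -0.34 that was not called (SE 0.23, adjusted p = 0.347).

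The relation of these secreted inhibitors turned over between the bins. On the per-length scale, Wif1 stood at 0.114 to 0.334 TPM per TPM of Notum in Low, 3.06 to 4.18 in MedLow, 4.66 to 6.52 in HiMed and 0.202 to 0.445 in High. So Wif1 transcripts outnumbered those of Notum in every library of the middle bins and in none of the outer bins. In the brightest cells Notum averaged 658 ± 109 TPM and Wif1 222 ± 56.1 TPM. The ratios were described and not tested.

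**Figure D2:**
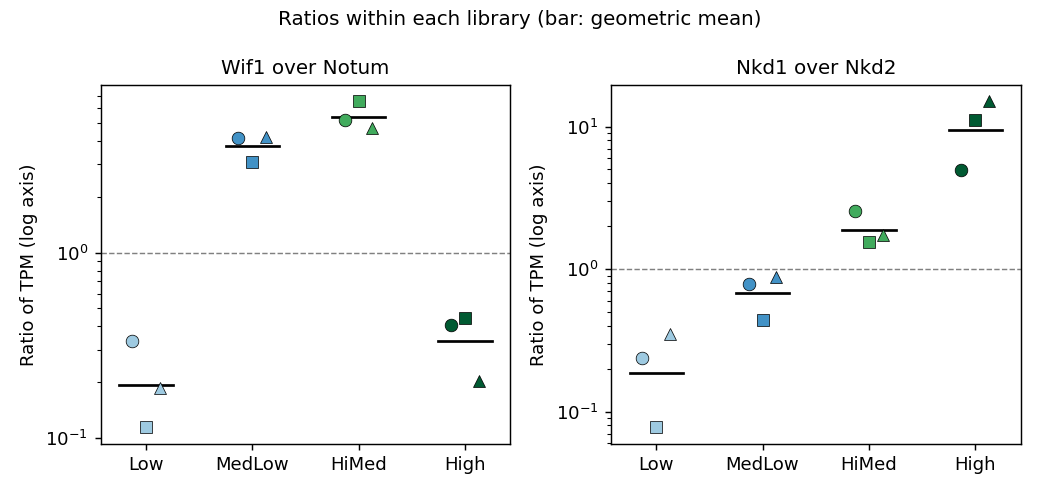
Ratio of TPM within each library on a log axis, Wif1 over Notum on the left and Nkd1 over Nkd2 on the right, by bin from Low to High; points are libraries and bars geometric means. The Wif1 to Notum ratio is above 1 in all libraries of MedLow and HiMed and below 1 in all of Low and High, while that of Nkd1 to Nkd2 is below 1 in Low and MedLow and above 1 in HiMed and High.

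Sfrp1, a secreted Wnt-binding protein related to the Frizzled receptors, ran the other way. Its libraries had 162, 148 and 160 CPM in Low, 107, 116 and 87.9 in MedLow, 39.7, 36.3 and 32.1 in HiMed, and 10.3, 13.0 and 8.05 in High. The bins did not overlap and each brighter bin was lower. Sfrp1 fell by 3.90 on the log2 scale in High over Low (SE 0.17, adjusted p = 1.67e-09), by 1.78 in High over HiMed (SE 0.16, adjusted p = 4.8e-06) and by 1.53 in HiMed over MedLow (SE 0.15, adjusted p = 2.62e-05). The step of MedLow over Low, -0.59 (SE 0.15, adjusted p = 0.0277), lost its call without any single Low library, without MedLow replicate 1 or without MedLow replicate 3 (adjusted p = 0.0526 to 0.135). It was also lost in the 3 limma fits on TPM (adjusted p = 0.0599 to 0.0821). Beside Sfrp1, the fibroblast gene Dcn had 6.95 ± 4.20 CPM in High and 608 ± 20.8 in Low. The whole list of 10 fibroblast markers summed to 605 to 643 CPM in Low, 106 to 194 in MedLow, 35.0 to 40.2 in HiMed and 8.91 to 17.4 in High, and those other than Dcn to no more than 18.01 CPM in any library. Lum was at 0 in every bin, Col3a1 in MedLow and HiMed, Col1a2 in MedLow, and Pdgfrb and Postn in High. Of the 5 markers tested in High over Low 1 rose and 3 fell. The part of such cells in the course of Sfrp1 was not tested.

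Dkk3 varied least. It had 93.8, 100 and 87.1 CPM in Low, 68.9, 59.9 and 66.0 in MedLow, 75.9, 71.8 and 71.4 in HiMed, and 45.9, 52.2 and 54.8 in High, so that High lay below every other library and Low above. The fall was 0.88 on the log2 scale in High over Low (-0.88, SE 0.09, adjusted p = 3.52e-06). HiMed and MedLow differed by 0.17, which was not called (SE 0.09, adjusted p = 0.257). With limma on TPM (pseudocount of 1), the calls of High over MedLow (-0.10, adjusted p = 0.483) and HiMed over Low (-0.25, adjusted p = 0.117) were lost. The median of all genes on that scale was 0.15 in High over MedLow and 0.050 in HiMed over Low, against -0.012 in each with edgeR. Why the calls were lost was not tested. That of HiMed over Low was also lost without Low replicate 2 (adjusted p = 0.0522).

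Of the last pair of secreted inhibitors, Dkk1 was not detected and Sfrp2 was barely detected. Dkk1 had 0 counts in all 12 libraries, which allows up to 0.0200 CPM in High and 0.0284 in Low (3 counts over the 3 libraries of a bin, counting error only). Sfrp2 had 25, 4 and 7 counts in Low, 0, 0 and 6 in MedLow, 0, 7 and 0 in HiMed, and none in High. With High set at that floor, the pooled Low level was 16.99-fold higher, or 8.67-fold without Low replicate 1, which held most of the counts. The error of the Low counts is left out, so these folds are not lower bounds. Tested with no filter on low counts, the difference was not called (adjusted p = 0.0802).

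Apcdd1, a membrane glycoprotein that inhibits Wnt at the cell surface, was the most abundant inhibitor of the dimmest cells. Its libraries had 395, 501 and 460 CPM in Low, 105, 133 and 97.1 in MedLow, 31.5, 44.6 and 42.8 in HiMed, and 105, 97.4 and 122 in High. Low stood far above the rest, HiMed below the rest, and MedLow and High overlapped. Apcdd1 fell by 2.02 in MedLow over Low (SE 0.15, adjusted p = 4.84e-06) and by 1.49 in HiMed over MedLow (SE 0.15, adjusted p = 3.25e-05), and rose by 1.45 in High over HiMed (SE 0.15, adjusted p = 2.1e-05), all on the log2 scale. High over Low was -2.06 (SE 0.15, adjusted p = 1.96e-07). High over MedLow was -0.045 (SE 0.15, adjusted p = 0.854), and its sign turned under other scalings. The summed markers of the von Ebner glands, whose ducts open at this papilla, were also highest in Low, carried by Dmbt1 and Bpifb1, while Lpo was lowest there at 0.356 ± 0.317 CPM. The 6 gland markers summed to 711 to 2044 CPM in Low, 146 to 248.9 in MedLow, 34.2 to 65.3 in HiMed and 2.12 to 93.7 in High, with 4 of 6 called lower in High over Low and none at 0 in any bin. Their part in the level of Apcdd1 was not tested.

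The paralogs Nkd1 and Nkd2, which both bind Dishevelled, went opposite ways in High over Low. Both rose in HiMed over MedLow. Both also rose in High over MedLow, by 5.08 for Nkd1 (adjusted p = 2.8e-07) and 1.42 for Nkd2 (adjusted p = 8.06e-05) on the log2 scale. Nkd1 had 1.88, 2.46 and 5.92 CPM in Low, 3.52, 2.37 and 3.32 in MedLow, 15.7, 10.3 and 11.9 in HiMed, and 107, 73.6 and 131 in High. Low and MedLow overlapped, and above them each bin was clear of the one before. Nkd1 rose by 3.04 on the log2 scale in High over HiMed (SE 0.34, adjusted p = 3.15e-05) and by 2.04 in HiMed over MedLow (SE 0.35, adjusted p = 0.0016). MedLow over Low was -0.17 (SE 0.37, adjusted p = 0.917), and 0.52 without Low replicate 3. High over Low was 4.91 (SE 0.38, adjusted p = 2.6e-07).

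Nkd2 had 18.8, 24.9 and 26.7 CPM in Low, 5.17, 4.57 and 6.19 in MedLow, 9.46, 10.8 and 9.995 in HiMed, and 16.3, 10.6 and 15.9 in High. Low was the highest bin and MedLow the lowest, and HiMed and High overlapped. Nkd2 fell by 2.14 on the log2 scale in MedLow over Low (SE 0.21, adjusted p = 3.51e-05), rose by 0.93 in HiMed over MedLow (SE 0.20, adjusted p = 0.00766), and in High over HiMed was at 0.50, not called (SE 0.20, adjusted p = 0.0908), though it was called without High replicate 2 (0.67, adjusted p = 0.023). High over Low was -0.72 (SE 0.20, adjusted p = 0.00959), but -0.38 on log2(TPM + 1) (limma adjusted p = 0.408). On that scale the call of HiMed over MedLow was lost as well (0.49, adjusted p = 0.438). On TPM the High libraries of Nkd2 were 16.01, 5.33 and 7.25. Nkd1 stood at 0.0775 to 0.352 TPM per TPM of Nkd2 in Low, 0.442 to 0.884 in MedLow, 1.55 to 2.54 in HiMed and 4.92 to 15.04 in High.

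Axin2, the scaffold protein whose transcript is the usual readout of beta-catenin activity, did not follow reporter brightness. Its libraries had 56.5, 63.2 and 44.5 CPM in Low, 23.4, 24.9 and 19.6 in MedLow, 21.7, 16.6 and 20.4 in HiMed, and 70.2, 69.2 and 88.4 in High. The outer bins lay above the middle bins without overlap, and the middle bins overlapped each other. Axin2 rose by 1.95 on the log2 scale in High over HiMed (SE 0.16, adjusted p = 2.43e-06) and fell by 1.27 in MedLow over Low (SE 0.15, adjusted p = 0.000213). HiMed over MedLow was -0.21 (SE 0.15, adjusted p = 0.444). High was above Low by 0.47 (SE 0.15, adjusted p = 0.0215), which was lost without Low replicate 3 (0.34, adjusted p = 0.106) or High replicate 3 (0.35, adjusted p = 0.101).

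**Figure D3:**
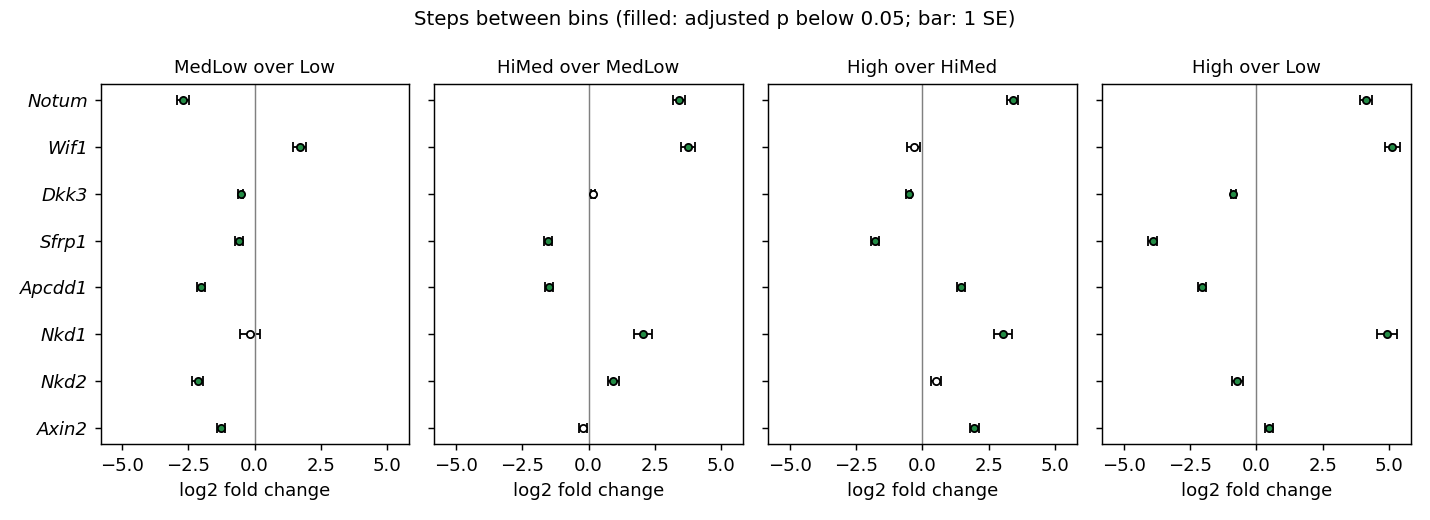
log2 fold change of each tested member for the 3 steps between neighbouring bins and for High over Low; bars are 1 SE and filled points have an adjusted p below 0.05. In MedLow over Low 6 members are called lower and Wif1 higher, whereas High over HiMed is at 3.39 for Notum, 3.04 for Nkd1 and 1.95 for Axin2 and negative for Wif1, Dkk3 and Sfrp1.

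In MedLow over Low, 6 members were called lower and 1 higher (Wif1), where 2.52% of all genes were called lower, 4.08% higher and 6.60% either way. The libraries did not overlap for 7 members in that step, and for 27.4% of all genes. In HiMed over MedLow, 4 were higher (Notum, Wif1, Nkd1 and Nkd2) and 2 lower (Sfrp1 and Apcdd1), against 7.38% and 6.12% of all genes, 13.5% in both directions. There the libraries of 7 members did not overlap, against 32.8% of all genes. In High over HiMed, 4 were higher (Notum, Apcdd1, Nkd1 and Axin2) and 2 lower (Dkk3 and Sfrp1), against 10.6% and 11.6% of all genes, 22.1% in both directions, and 6 did not overlap, against 35.3% of all genes. Across the wider gaps, High over MedLow had 5 higher and 2 lower, against 18.2% and 19.8% of all genes (38.0% in both directions), and 7 without overlap, against 51.3%. HiMed over Low had 3 higher and 5 lower, against 12.4% and 11.3% of all genes (23.6% in both directions), and 8 without overlap, against 38.6%. Neighbouring steps share a bin, so the steps are not separate evidence of one another. Under TPM the higher genes made up 66.9% of all called in High over Low and 72.3% in HiMed over MedLow (pseudocount of 1), against 48.7% and 54.7% with TMM scaling, and with library size only it was 65.7% in HiMed over MedLow.

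Summed over the 10 members, inhibitor transcripts came to 404 ± 39.1 TPM in Low libraries, 160 ± 8.21 in MedLow, 410 ± 87.6 in HiMed and 1109 ± 91.7 in High. The make-up also differed between bins, as a description with no test. Apcdd1 made up 56.7% ± 3.63 of the sum in Low and 34.7% ± 3.12 in MedLow, where Sfrp1 held 22.5% ± 1.81 and Dkk3 18.7% ± 2.15. Wif1 made up 64.2% ± 2.33 in HiMed, and Notum 59.0% ± 5.12 in High, where Wif1 held 20.3% ± 6.28 and Nkd1 7.34% ± 1.64. So a different gene led in the dimmer bins, in HiMed and in High. Sfrp1 held 0.396% ± 0.121 of the sum in High.

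**Figure D4:**
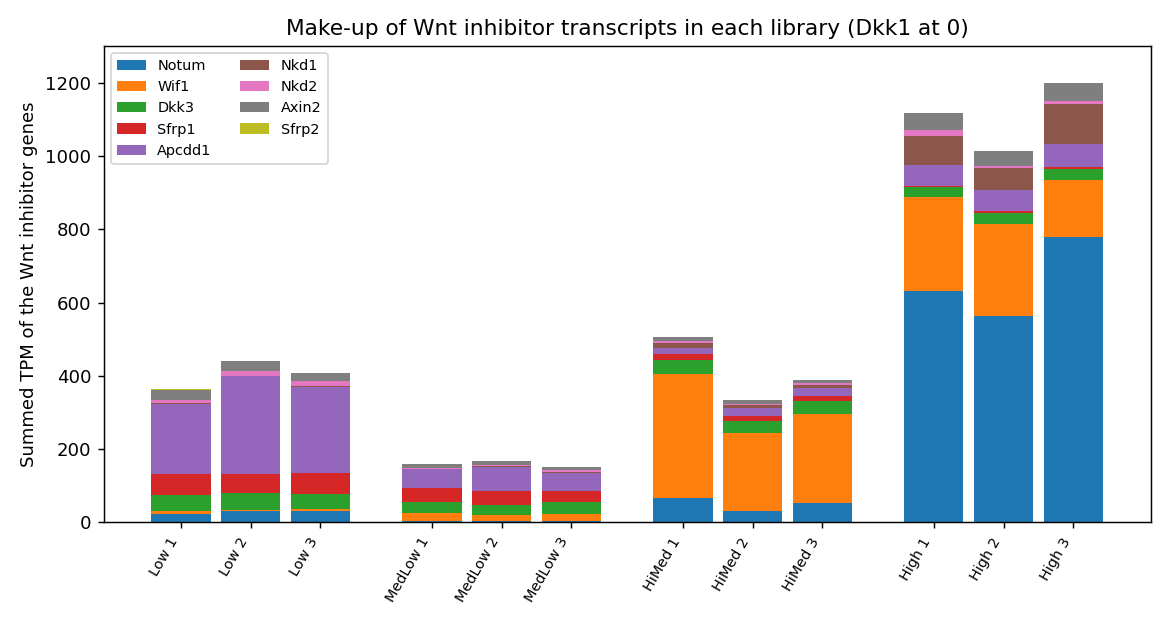
Stacked bars of TPM for the Wnt inhibitor genes in each of the 12 libraries, in order of brightness; Dkk1 is at 0 throughout. Low is mostly Apcdd1, HiMed mostly Wif1 and High mostly Notum, with sums of 1015 to 1198 TPM in High and 152 to 169 TPM in MedLow.

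The ratio of counts to TPM follows the transcript length that the authors' quantification used for a gene, and shows how far the scales can part. Relative to its own mean over libraries, that ratio ran from 0.986 to 1.03 for Dkk3 and from 0.983 to 1.02 for Sfrp1, so it hardly moved between libraries. It ran from 0.667 to 1.29 for Notum, 0.639 to 1.48 for Nkd1 and 0.608 to 1.29 for Nkd2. Of 10457 genes with at least 100 counts in every library, 9.95%, 4.70% and 6.71% had wider ranges than these. Nkd1 itself falls short of that count. Its extremes of 0.639 and 1.48 were in Low replicates 1 and 2, at 80 and 61 counts, so its range is not on a like footing with those genes. For Nkd2 the lowest ratios were 0.608 in MedLow replicate 2 and 0.610 in High replicate 1, while the other libraries lay between 0.856 and 1.29. For Notum the 3 High libraries were at 0.902 to 0.941.

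Other Wnt pathway genes were read from the same fit, as lists whose members were fixed with earlier results of these data known. No list was tested as a set. The lists overlap, with Rnf43 and Znrf3 counted both as inhibitors and as targets, and Lef1 and Tcf7 both as targets and as Tcf factors. Lgr5 is counted among the targets and the R-spondin pathway, and Axin1 among the inhibitors and the destruction complex. Their counts are therefore not separate evidence of one another. Of 20 tested further inhibitors, 9 rose and 4 fell in High over Low, against 20.1% of all genes called higher, 21.2% lower and 41.4% either way, with a median log2 fold change of 0.54 where the median of all genes was -0.0073. The 9 include Bambi (0.63, adjusted p = 0.00429), which was counted in this list though it is a decoy receptor of BMP and TGF-beta signalling. Dkk2, a relative of Dkk1, averaged 26.8 ± 10.8 CPM in High and 0.0778 ± 0.135 in Low, which held 9 counts over its libraries (8.26, SE 0.92, adjusted p = 2.06e-05). Trabd2b, a protease that cleaves Wnt, averaged 0.234 ± 0.194 CPM in High and 63.9 ± 14.6 in Low (-8.11, SE 0.46, adjusted p = 1.67e-08). Shisa2, which holds back Frizzled and Fgf receptors, averaged 62.5 ± 29.9 CPM in High and 7.49 ± 0.714 in Low (3.06, adjusted p = 4.91e-06). Dact1 also rose (3.08, adjusted p = 0.00183). The ubiquitin ligases Rnf43 and Znrf3, which remove Frizzled receptors, rose by 0.49 (adjusted p = 0.00437) and 0.64 (adjusted p = 8.7e-05).

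Of 16 tested Wnt target genes, 9 rose and 4 fell in High over Low (median 0.47), where 41.4% of all genes were called. In High over HiMed 7 rose and 4 fell, where 22.1% of all genes were called, and in MedLow over Low 2 rose and 5 fell, where 6.60% were. Among the Tcf factors, Lef1 averaged 126 ± 13.3 CPM in Low, 33.4 ± 7.80 CPM in MedLow, 35.0 ± 11.3 CPM in HiMed and 90.9 ± 10.3 CPM in High. Tcf7 averaged 29.9 ± 0.958 CPM in Low, 14.3 ± 1.61 CPM in MedLow, 26.2 ± 3.70 CPM in HiMed and 43.0 ± 4.30 CPM in High. Both were lower in MedLow than in Low, as Axin2 was, and Tcf7 fell there by 1.07 (adjusted p = 0.000202). Lef1 fell by 1.91 in MedLow over Low (adjusted p = 0.000118) and rose by 1.38 in High over HiMed (adjusted p = 0.000397). Rnf43 fell by 0.57 (adjusted p = 0.0111) and rose by 1.13 (adjusted p = 2.18e-05) in those steps. Other targets took other courses. The R-spondin receptor Lgr5, a stem cell marker, averaged 51.8 ± 9.98 CPM in MedLow, 239 ± 56.7 CPM in HiMed and 175 ± 18.8 CPM in High, and rose by 2.36 in MedLow over Low (adjusted p = 2.15e-05). Myc fell by 2.71 in High over Low (adjusted p = 7.97e-07). Fgf20 rose by 7.02 (SE 0.87, adjusted p = 1.94e-05), to 23.9 ± 5.53 CPM in High. In Low it averaged 0.183 ± 0.0185 CPM, with 19 counts over the libraries of that bin. The taste lineage factor Prox1 rose by 3.60 (adjusted p = 1.26e-06), while Sp5 had 72 counts in all and was not tested.

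**Figure D5:**
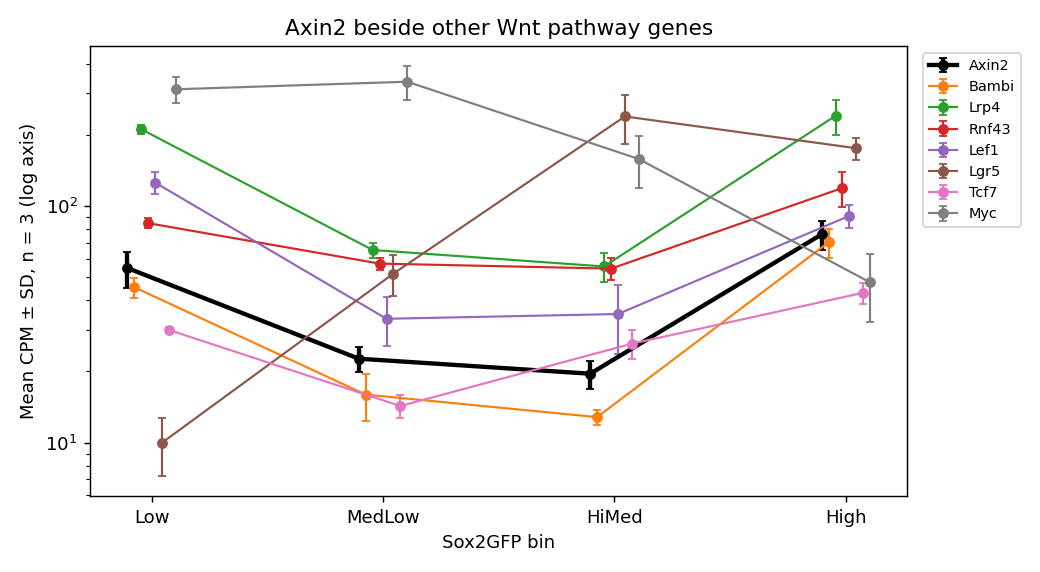
Mean CPM ± SD (n = 3, log axis) by Sox2GFP bin for Axin2, in black, and 7 other genes of the lists read here. Bambi, Lrp4, Rnf43 and Lef1 are lower in the middle bins than in Low and High, as Axin2 is. Bambi and Lrp4 are among the genes nearest to Axin2 by Pearson's r over these libraries, so their likeness is no separate evidence. Lgr5 peaks at 239 CPM in HiMed and Myc is lowest in High at 47.5 CPM.

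The molecules these inhibitors act on were also measured. Lrp5, bound by Dkk1, fell by 0.78 in High over Low (adjusted p = 1.53e-05), while Lrp6 was at 0.23 (adjusted p = 0.0529), not called. Kremen1, which cooperates with Dkk1, averaged 274 ± 13.4 CPM in High and 183 ± 16.4 in Low (0.58, adjusted p = 6.06e-05), and Kremen2 stayed below 1 CPM in every bin mean. Porcn, the enzyme that attaches the lipid Notum removes, rose by 0.53 in High over Low (adjusted p = 0.0219) and fell by 0.60 in High over HiMed (adjusted p = 0.0181). Of the Dishevelled genes bound by Nkd proteins, Dvl2 rose (0.71, adjusted p = 0.000187), Dvl1 fell (-0.33, adjusted p = 0.00387) and Dvl3 was not called (0.13, adjusted p = 0.144). Ctnnb1, which encodes beta-catenin, averaged 1056 ± 37.9 CPM in High and 945 ± 47.8 in Low (0.16, adjusted p = 0.0596). The list counts that follow are for High over Low, where 20.1% of all genes were called higher, 21.2% lower and 41.4% either way. Of 15 tested receptor genes 6 rose and 2 fell, with the largest rises in Fzd4 (3.26, adjusted p = 2.77e-07) and Fzd1 (2.20, adjusted p = 4.69e-09). Of 13 tested ligands 3 rose and 6 fell (median -1.84), with Wnt10a at -3.72 (adjusted p = 1.67e-09) and Wnt9a at 3.42 (adjusted p = 2.25e-08). Among the falls, Wnt3 and Wnt10b averaged 0 CPM in High, against 4.55 ± 2.94 and 4.34 ± 1.73 in Low. Wnt6, which also fell, averaged 0.742 ± 0.201 CPM in High and 3.60 ± 0.395 in Low. Of 7 tested genes of Wnt secretion and glypicans, cell-surface proteoglycans that bind Wnt, 5 rose and 1 fell (Gpc3, -2.14, adjusted p = 1.61e-07). Of 5 tested R-spondin pathway genes 3 rose and 2 fell, and the receptor Lgr6 averaged 661 CPM in High and 67.7 in Low (3.29, adjusted p = 4.31e-09). Among those counted, the ligands Rspo3 and Rspo1 were near the floor. Rspo3 averaged 0.398 ± 0.346 CPM in High and 0 in Low (called higher, adjusted p = 0.0326). Rspo1 averaged 0 CPM in High and 0.338 ± 0.0952 in Low (called lower, adjusted p = 0.0392). Of 14 tested Dishevelled and destruction complex genes 7 rose and 4 fell, and of 4 Tcf factors 2 rose and none fell. Apc2, among those 4 falls, averaged 0 CPM in High and 0.447 ± 0.0379 in Low.

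The genes whose levels most resembled each inhibitor were found by Pearson's r of log2 CPM over the 12 libraries, among 10039 other genes, as a description of libraries that share bins. Nearest to Axin2 were Bambi (0.98), a decoy receptor of BMP and TGF-beta signalling, Lrrc45 (0.98) and Lrp4 (0.97), a relative of Lrp5 that antagonises Wnt. Bambi averaged 45.4 ± 4.44 CPM in Low, 15.97 ± 3.59 CPM in MedLow, 12.8 ± 0.955 CPM in HiMed and 70.2 ± 9.68 CPM in High. Lrp4 averaged 211 ± 9.12 CPM in Low, 65.2 ± 4.91 CPM in MedLow, 55.5 ± 7.73 CPM in HiMed and 241 ± 41.2 CPM in High. Nearest to Notum was the Ets factor Etv5 (0.99) and to Wif1 its relative Etv1 (0.99), both known from other tissues as genes induced by Fgf signalling. Sfrp1 was nearest to Cspg4, Sim2 and the hemidesmosome linker Dst (each 0.99), Nkd1 to Pald1, Man1a and Mpp6 (0.99 each), and Apcdd1 to Trps1, Krt79 and Gadd45b (0.97 each). Nkd2 (Gse1, 0.95) and Dkk3 (Plxnb1, 0.95) had the loosest nearest genes.

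Among the members themselves, r over the 12 libraries was 0.90 between Notum and Nkd1 and 0.78 between Wif1 and Nkd1. It was 0.68 between Notum and Axin2 and 0.66 between Nkd2 and Axin2, but -0.12 between Wif1 and Axin2. Sfrp1 stood opposite to Nkd1 (-0.97), Wif1 (-0.86) and Notum (-0.84), and Apcdd1 opposite to Wif1 (-0.86). The paralogs Nkd1 and Nkd2 were at 0.19. The libraries of a bin are not independent points across the bins, so these are descriptions.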

How the data were processed

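RNA was measured in 12 libraries, 3 for each of the bins Low, MedLow, HiMed and High, grouped by their titles. Per the submitters' processing notes, the authors used Salmon 1.4.0, and DESeq2 1.28.1 and the build mm39 are also named; the annotation and the step from transcripts to gene symbols are not stated there. The deposited expected counts are unscaled estimated counts per symbol, of which 8.24 to 13.0% in a library were not whole. TPM, as deposited by the authors, has an equal sum in every library.

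Expected counts were rounded and fitted with edgeR 4.0.16 in R 4.3.3 (quasi-likelihood, 1 term per bin, all 12 libraries, TMM scaling, filterByExpr with a minimum count of 10). This left 17432 genes, and the 35238 symbols left out held 0.0339% of counts. A call needed an adjusted p below 0.05 over all genes, separately per comparison. The SE is the one implied by the F statistic. Alternatives used limma 3.58.1 on log2(TPM + 1) or log2(TPM + 0.1), limma-voom, DESeq2 1.42.0, other scalings and filters, and left-out libraries. The fit was run on simulated counts with a smaller spread than these libraries have (common biological coefficient of variation 0.366 here). That run therefore does not show how the fit performs at the spread of these data.

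Named genes are the members, up to 4 called genes per Wnt list, a fixed set of partners and markers, and the 3 most alike genes per member (at least 10 CPM in their highest bin, named symbols). The members and lists were chosen with earlier results of these data known.

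Libraries of a bin differed by more than counting noise (chi-square per degree of freedom of 25.8 to 90.3). The series' design text was read as 3 pools of mice, each divided over the 4 bins, so that equal replicate numbers pair libraries; the labels do not say so outright. Over 9650 genes, deviations from the bin means had r of 0.0586 to 0.411 between libraries of equal number (18 pairs, 15 with r over 0.1) and -0.321 to 0.101 between libraries of unequal number (36 pairs).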

Additional observations from a re-analysis of the deposited data

How the results depend on the processing

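Over 23 alternatives, the 8 tested members gave 1280 comparisons of a single gene, of which 1244 kept their direction and side of the threshold, 28 lost a call, 1 gained a call and 7 changed sign. The number of members called was 8 in High over Low (7 to 8 with a library left out), 6 in High over HiMed (6 to 7), 6 in HiMed over MedLow (6), 7 in MedLow over Low (6 to 7), 7 in High over MedLow (7), 8 in HiMed over Low (7 to 8) and 8 for any difference (8). With the replicate block these counts were 8, 6, 6, 7, 7, 8 and 8 in the same order, and the block changed no call. Over all the settings that kept every library, the lowest counts were 7, 6, 5, 6, 6, 5 and 8 in that order. With log2(TPM + 1) and no filter, 5 members were called in HiMed over Low, and more genes were tested there. The sign changes were of differences that were never called. Apcdd1 in High over MedLow was at 0.049 with library size only, 0.12 with each of the limma fits on TPM (pseudocounts of 1 and 0.1, and unfiltered), 0.10 without MedLow replicate 2 and 0.025 without High replicate 2, and ran from -0.14 to 0.10 with a library left out. Nkd1 in MedLow over Low ran from -0.48 without Low replicate 1 to 0.52 without Low replicate 3. On TPM the median gene stood at 0.14 (pseudocount 1) and 0.17 (pseudocount 0.1) in High over Low, against -0.0073 with TMM scaling. The causes were not tested. Dkk1 had 0 counts in every library and Sfrp2 had 0 to 25 a library. Whether Dkk1 transcripts were absent or below the reach of this depth was not tested.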
